A study of Mus musculus with 4 samples.

Results

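The genes described here are 34 genes of the cell cycle and of DNA replication, taken by symbol from a table of 22155 gene symbols measured in whole mouse liver. The rule that names them uses no measured value, and all 34 were in the table. By role, 12 act in the control of G1, 11 in replication and 11 in mitosis. Messenger RNA was sequenced from livers of adult wild type C57BL/6 mice aged 8 to 10 weeks. For 10 days all of the mice were fed the Lieber-DeCarli liquid diet, with ethanol at 5%. In the group called ethanol alone (2 libraries) no further treatment is given in the titles. In the gavage group (2 libraries) an ethanol binge (5 g/kg) was given by gavage, into the stomach, and livers were collected after 9 h. The protocol text in the labels describes the binge for all 4 samples, so the groups rest on the titles and treatment labels. The sources used here give neither sex nor a control gavage, and no sample without ethanol was analysed here. Whether libraries of a group are from different animals is not said, and p-values therefore reflect the spread among these 4 libraries alone, which may be technical.

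Cells enter the cycle from rest through G1, in which D-type cyclins with their kinases CDK4 and CDK6 inactivate the retinoblastoma proteins and free the E2F transcription factors. E2F targets include cyclin E, which with CDK2 starts S phase, the MCM helicase that is loaded on replication origins, and the enzymes that supply deoxynucleotides. Genes of mitosis are switched on later, in G2, largely through CCAAT boxes and a short promoter motif called the cell cycle genes homology region (CHR), which is bound by a repressor complex in resting cells. Most hepatocytes of an adult liver are at rest and divide after loss of tissue. The comparison asks how the messages of these stages differed in ethanol-fed liver with and without the binge.

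Total counts ran from 28791281 to 30347558 per library. Values below are CPM (counts scaled to library size with TMM, a factor for composition), given for ethanol alone replicates 1 and 2 and then for gavage replicates 1 and 2. Group values are mean ± SD with n = 2, and a fold change compares gavage with ethanol alone. Liver identity was checked with 10 hepatocyte markers, whose summed level was 128420 to 145700 CPM with ethanol alone and 102160 to 127890 CPM after gavage. Of these markers, 9 had a log2 fold change below 0 (median of the 10 -0.50), against 48.3% of all tested genes. Both libraries numbered 1 held messages of fat tissue: Cfd (adipsin) had 627 and 723 counts in the replicates 1 and 0 counts in both replicates 2. A cell cycle gene that differs between the replicates of both groups is given with its library.

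The promoters of these genes are shown because the stages differ in the motifs they carry. RefSeq windows of 250 bases before to 50 after the start site (GRCm38.p6) were matched for 27 of the 34 genes, 9 of each role. Those without a window were Foxm1, Ccne2, Ccnd2, Ccnd1, Ccna2, Mcm4 and Gins2. A CHR (TTTGAA or else TTCGAA, either strand) was present in 7 of 9 mitotic, 2 of 9 replication and 1 of 9 G1 genes, and in 19.2% of all 32851 windows. An E2F core (TTGGCGC or else TTCCCGC or else TTGCCGC or else TTCGCGC, either strand) was present in 3, 6 and 3 of 9 genes respectively, and in 9.57% of all windows. The letters CCAAT on either strand were present in 8, 8 and 5 of 9 genes, and in 37.4% of all windows. A gene with several windows was counted if any of them held the motif. Matches are letters in a window and not measured binding. Below are the 200 bases before the start site, 5′ to 3′ on the strand of the gene, for 6 genes. They are the helicase gene Mcm6, the reductase gene Rrm2 and 4 mitotic genes without overlap between the groups and with a CHR in the stretch. Mki67 meets both terms as well and is not shown. Other mitotic genes without overlap differ: Birc5 holds none of the motifs and Ccnb1 no CHR. Plk1 and Aurka hold a CHR only after the start site, at 31 and 33. Capitals mark the CHR, the E2F cores and the CCAAT letters on either strand, and adjacent or overlapping matches run together.
Cdk1 (chr10:69352913-69353112, minus strand): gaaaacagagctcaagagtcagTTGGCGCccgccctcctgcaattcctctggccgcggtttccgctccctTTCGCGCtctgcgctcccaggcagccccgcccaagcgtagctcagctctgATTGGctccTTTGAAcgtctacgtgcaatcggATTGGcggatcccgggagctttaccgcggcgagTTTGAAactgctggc
Top2a (chr11:99024190-99024389, minus strand): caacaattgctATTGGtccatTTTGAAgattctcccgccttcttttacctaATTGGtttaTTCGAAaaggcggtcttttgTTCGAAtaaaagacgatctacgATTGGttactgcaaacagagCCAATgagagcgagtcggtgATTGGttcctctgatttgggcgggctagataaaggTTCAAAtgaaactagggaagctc
Ccnb2 (chr9:70421555-70421754, minus strand): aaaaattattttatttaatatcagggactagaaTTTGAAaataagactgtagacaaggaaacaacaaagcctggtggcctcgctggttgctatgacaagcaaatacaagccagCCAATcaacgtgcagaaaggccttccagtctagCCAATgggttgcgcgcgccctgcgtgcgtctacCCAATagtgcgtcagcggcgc
Cdc20 (chr4:118437344-118437543, minus strand): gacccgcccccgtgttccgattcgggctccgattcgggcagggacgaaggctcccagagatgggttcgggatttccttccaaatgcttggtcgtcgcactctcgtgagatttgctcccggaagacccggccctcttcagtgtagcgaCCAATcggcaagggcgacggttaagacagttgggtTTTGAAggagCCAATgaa
Mcm6 (chr1:128359706-128359905, minus strand): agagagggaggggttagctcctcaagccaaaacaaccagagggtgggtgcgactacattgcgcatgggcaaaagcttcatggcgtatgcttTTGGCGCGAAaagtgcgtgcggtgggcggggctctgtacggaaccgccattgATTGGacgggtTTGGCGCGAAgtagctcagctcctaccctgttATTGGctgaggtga
Rrm2 (chr12:24708054-24708253, plus strand): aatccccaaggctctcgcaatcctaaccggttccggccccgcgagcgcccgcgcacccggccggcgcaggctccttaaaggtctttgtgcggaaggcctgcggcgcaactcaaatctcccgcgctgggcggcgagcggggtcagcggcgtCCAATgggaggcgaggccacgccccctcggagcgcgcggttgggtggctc
The 4 mitotic stretches combine a CHR with CCAAT letters. That of Mcm6 holds E2F cores, and that of Rrm2 holds CCAAT letters, its E2F core lying upstream of the stretch shown.

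After the gavage, the message of cyclin E1 and that of the ribonucleotide reductase subunit Rrm2 stood higher in both libraries, those of cyclin D3, E2f8 and the helicase subunit Mcm6 stood lower, and most mitotic messages stood lower. None passed the adjusted test. Over 13309 tested genes, edgeR's quasi-likelihood test (Benjamini-Hochberg adjusted p under 0.05) called 0 of the 34, against 0% of all tested genes, and the smallest adjusted p among the 34 was 0.133. At an unadjusted p under 0.05 there were 9 of 34, against 18.8% of all tested genes. Of these 9, 2 were higher (Ccne1 and Rrm2), where the share over all genes was 8.91%, and 7 were lower (Ccnd3, E2f8, Mcm6, Top2a, Ccnb1, Cdk1 and Birc5), where it was 9.85%. Ccne1 passed the filter on low counts through the gavage libraries and Ccnb1 through the ethanol alone libraries, where each was high. Their place in these counts is therefore no support for a direction. With 1 library left out the count of 9 is not compared, since 1 group then held 1 library. Fold changes moved both ways in those fits. The log2 value ran from 0.90 to 2.02 for Rrm2 and from -2.51 to -0.84 for E2f8. The likelihood-ratio test of edgeR called 3 of the 34 at an adjusted p under 0.05 (Ccne1, Rrm2 and Ccnd3), against 4.13% of all genes. DESeq2 called 4 of the 29 that had an adjusted p, against 9.79% of all genes: Ccne1 and Rrm2 higher (4.37% of all genes) and Ccnd3 and E2f8 lower (5.43%). limma-voom called 0. Between the groups, 22 of the 34 had no overlap, against 54.7% of all genes, of which 5 lay higher, against 27.5%, and 17 lower, against 27.2%.

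**Figure D1:**
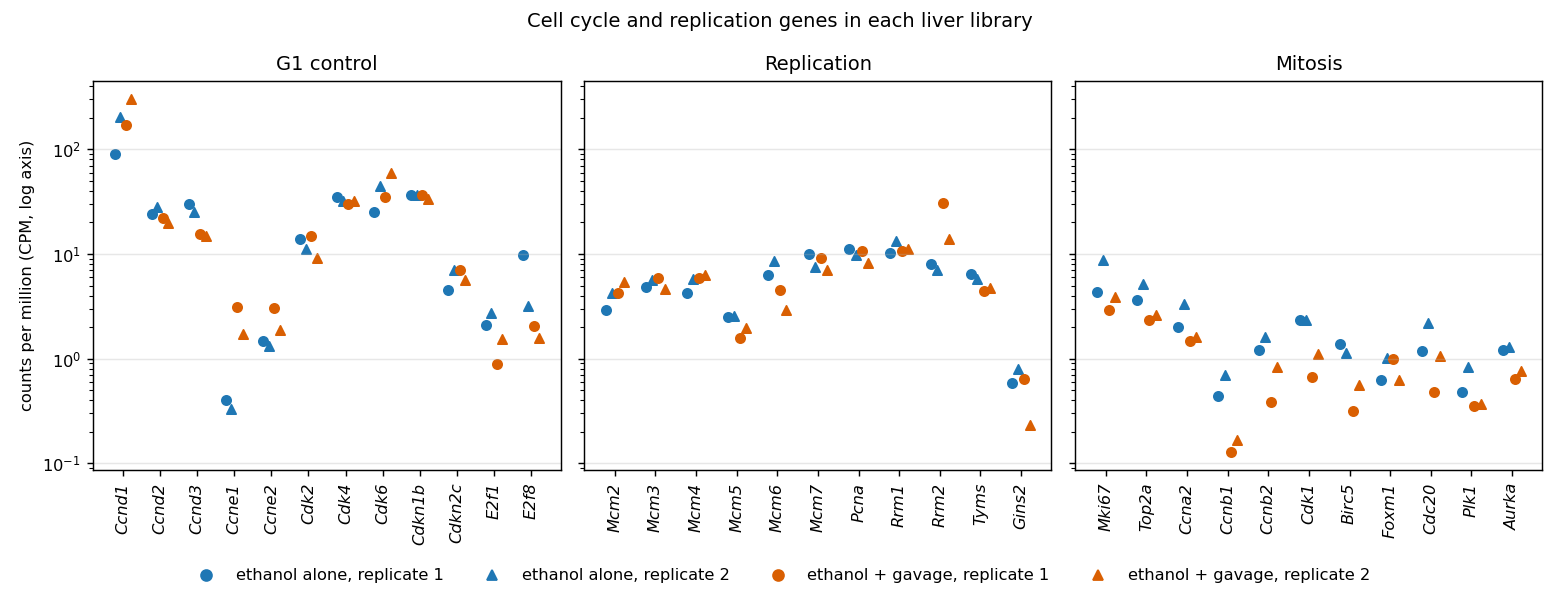
Level of each of the 34 genes in each of the 4 liver libraries, in CPM on a log axis, grouped by role, with circles for replicate 1 and triangles for replicate 2, and ethanol alone in blue and ethanol with gavage in orange. In both gavage libraries 5 of the 34 (Ccne1, Ccne2, Rrm2, Mcm2 and Mcm4) lay higher, against 27.5% of all tested genes. Among mitotic genes 10 of 11 lay lower in both, against 27.2%. These include Ccnb1, which passed the filter through the ethanol alone libraries.

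Among the D-type cyclins, the growth-factor sensors of G1, cyclin D1 was the most abundant message. Ccnd1 stood at 90.5 and 202 CPM with ethanol alone and at 172 and 304 CPM after gavage. Its groups overlapped, and within each group replicate 2 was higher, by 2.23 times and 1.77 times. The log2 fold change was 0.70 (SE 0.48, edgeR adjusted p = 0.465), and it was 0.21 without replicate 1 and 1.34 without replicate 2 of ethanol alone. Its exons overlap a gene on the opposite strand, and no source used here gives the strand setting of the counts. The libraries numbered 1, where Ccnd1 was lower, are those with fat tissue messages, whose part was not tested. Cyclin D3 went the other way. Ccnd3 (chromosome 17, 47505051 to 47599691, GRCm38) stood at 29.9 and 25.1 CPM with ethanol alone and at 15.5 and 14.8 CPM after gavage, so that both gavage libraries lay below both others. The means were 27.5 ± 3.39 and 15.2 ± 0.513 CPM, a log2 fold change of -0.86 (SE 0.17, edgeR adjusted p = 0.136, DESeq2 adjusted p = 0.00929). A pseudogene named after it, Ccnd3-ps, could share its reads, and its exons overlap Bysl on the other strand. Ccnd2, the other D-type cyclin, stood at 24.3, 27.9, 21.9 and 19.9 CPM, lower in both gavage libraries by a small margin (log2 fold change -0.32, SE 0.16, edgeR adjusted p = 0.346).

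Cyclin E1, the partner of CDK2 at the entry to S phase, had the largest fold change of the 34 in either direction. Ccne1 (chromosome 7, 38097984 to 38107534) had 11 and 10 counts with ethanol alone and 98 and 52 counts after gavage. In CPM these were 0.403, 0.330, 3.12 and 1.73, and the gavage libraries did not overlap the others. Exact Poisson 95% intervals, which cover counting error only, ran from 4.80 to 19.7 counts over the ethanol alone libraries and from 38.8 to 119 over the gavage libraries. The group means of 0.367 ± 0.0512 and 2.42 ± 0.985 CPM differed 6.61-fold, a log2 fold change of 2.71 (SE 0.50, edgeR adjusted p = 0.133, DESeq2 adjusted p = 0.00329). The filter on low counts would have kept this gene on the gavage libraries alone. Ccne2, the paralogous cyclin E2, stood at 1.46, 1.32, 3.06 and 1.86 CPM, also without overlap. Its log2 fold change of 0.82 (SE 0.39, edgeR adjusted p = 0.326) was 0.42 without replicate 1 of the gavage group.

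The 3 kinases of G1 and the 2 kinase inhibitors among the 34 overlapped between the groups. Cdk4, the kinase of the D-type cyclins, ranged from 29.8 to 35.2 CPM, and Cdkn1b, which encodes the inhibitor p27, from 33.2 to 36.8 CPM. Cdk2 ranged from 9.23 to 14.7 CPM and Cdkn2c, which encodes the CDK4 and CDK6 inhibitor p18, from 4.50 to 6.97 CPM. Cdk6 stood at 25.4 and 44.9 CPM with ethanol alone and at 35.3 and 59.8 CPM after gavage, higher in replicate 2 of each group, as Ccnd1 was. For these 5 genes log2 fold changes ran from -0.12 to 0.44, and no unadjusted p was under 0.05. The E2F factors among the 34, E2f1 and E2f8, stood lower in both gavage libraries. Of the other E2F genes, picked out after their values were seen, E2f3, E2f4 and E2f5 stood higher in both, with log2 fold changes of 0.24 to 0.56. E2f2, E2f6 and E2f7 overlapped between the groups, with log2 fold changes of -1.91, 0.09 and -0.18. E2f1, an activator of S phase genes, stood at 2.09, 2.74, 0.892 and 1.53 CPM (edgeR adjusted p = 0.286 for a log2 fold change of -1.0, SE 0.42). Without replicate 1 of the gavage group the value for E2f1 was -0.66. E2f8, an atypical E2F that represses targets of the others, stood at 9.88, 3.17, 2.04 and 1.56 CPM, so that replicate 1 of ethanol alone stood apart at 3.12 times its partner. Its log2 fold change of -1.85 (SE 0.58, edgeR adjusted p = 0.213, DESeq2 adjusted p = 0.0377) was -0.84 without that library.

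The helicase subunits MCM2 to MCM7, which form a single ring in the cell, did not go in 1 direction. Mcm6 (chromosome 1, 128331590 to 128359664), whose promoter with E2F cores is shown above, stood at 6.26 and 8.59 CPM with ethanol alone and at 4.52 and 2.89 CPM after gavage. Its groups did not overlap, and the means of 7.42 ± 1.65 and 3.71 ± 1.15 CPM gave a log2 fold change of -1.0 (SE 0.32, edgeR adjusted p = 0.22). Mcm5 lay lower as well, at 2.49, 2.54, 1.59 and 1.96 CPM. Mcm2 lay on the other side, at 2.93, 4.20, 4.24 and 5.35 CPM, and so did Mcm4, at 4.28, 5.78, 5.95 and 6.24 CPM, each without overlap by a narrow margin. The remaining subunits overlapped between the groups, Mcm3 with a range of 4.65 to 5.92 CPM and Mcm7 with 7.04 to 9.96 CPM. The log2 fold changes of Mcm2, Mcm3, Mcm4, Mcm5 and Mcm7 ran from -0.50 to 0.43 with edgeR adjusted p of 0.434 or more, and that of Mcm2 was 0.16 without replicate 1 of ethanol alone. Gins2, a subunit of the GINS complex that activates the ring, had 16, 24, 20 and 7 counts. Gins2 shares most of its exon sequence with Gse1 on the opposite strand, and whether the counting separated the strands is not known.

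Enzymes of deoxynucleotide supply differed from each other. Rrm2 (chromosome 12, 24708241 to 24714146), the small subunit of ribonucleotide reductase that is limiting in S phase, stood at 7.94 and 7.04 CPM with ethanol alone and at 30.5 and 13.9 CPM after gavage. Both gavage libraries were above both others, and replicate 1 of the gavage group was 2.19 times its partner. The means of 7.49 ± 0.642 and 22.2 ± 11.7 CPM differed 2.96-fold, a log2 fold change of 1.57 (SE 0.40, edgeR adjusted p = 0.177, DESeq2 adjusted p = 0.00711), which was 0.90 without replicate 1 of the gavage group. Rrm1, the large subunit of the same enzyme, stood at 10.2, 13.2, 10.6 and 11.1 CPM, with a log2 fold change of -0.11 (SE 0.21). Tyms, the thymidylate synthase, lay slightly lower after gavage, at 6.41, 5.78, 4.46 and 4.68 CPM (edgeR adjusted p = 0.36 for a log2 fold change of -0.41, SE 0.22). Pcna, the sliding clamp of the replication polymerases, overlapped between the groups at 11.1, 9.81, 10.8 and 8.24 CPM. Pcna and Tyms have named pseudogenes whose reads the counting could split.

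Mitotic messages had the lowest summed level of the 3 roles. All 11 had a log2 fold change below 0, against 48.3% of all tested genes. Foxm1 was the exception in some settings, where 10 of 11 were below 0. It stood at 0.049 under library totals without a composition factor. Without replicate 2 of ethanol alone it stood at 0.33, and without replicate 2 of the gavage group at 0.25. The median of the 11 was -0.94, against 0.02 over all tested genes. In 10 of the 11 both gavage libraries lay below both ethanol alone libraries, against 27.2% of all tested genes, and 4 had an unadjusted p under 0.05 in the lower direction, against 9.85%. Cdk1 (chromosome 10, 69335146 to 69352938), the kinase that starts mitosis, had 64 and 71 counts with ethanol alone and 21 and 33 counts after gavage. In CPM it stood at 2.34, 2.35, 0.669 and 1.10, which was 2.66-fold lower in the mean (log2 fold change -1.41, SE 0.41, edgeR adjusted p = 0.2). Its partner cyclin B1 was near the limit of detection: Ccnb1 had 12, 21, 4 and 5 counts, with an exact Poisson 95% interval of 1.09 to 10.2 counts around the lowest. The log2 fold change of Ccnb1 was -1.92 (SE 0.65, edgeR adjusted p = 0.228), and the filter on low counts would have kept it on the ethanol alone libraries but not on the gavage libraries. Ccnb2, the second B-type cyclin, had 33, 49, 12 and 25 counts. Both B-type cyclins have a named pseudogene.

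Birc5, which encodes the chromosomal passenger survivin, had 38 and 34 counts with ethanol alone and 10 and 17 after gavage, without overlap (log2 fold change -1.50, SE 0.51, edgeR adjusted p = 0.232). Top2a, the topoisomerase that untangles chromosomes, stood at 3.62, 5.19, 2.32 and 2.59 CPM (edgeR adjusted p = 0.244 for a log2 fold change of -0.84, SE 0.30). Mki67, the proliferation marker Ki-67, stood at 4.32, 8.79, 2.90 and 3.92 CPM, with its highest value in replicate 2 of ethanol alone. Its log2 fold change of -0.94 (SE 0.41, edgeR adjusted p = 0.292) was -0.40 without that library. Cyclin A2, active from S phase to early mitosis, had the same order of libraries, with Ccna2 at 2.01, 3.30, 1.46 and 1.63 CPM. Cdc20, an activator of the anaphase-promoting complex, had 32, 66, 15 and 32 counts, and the kinase genes Aurka and Plk1 had 33, 39, 20 and 23 counts and 13, 25, 11 and 11 counts. These 4 genes did not overlap between the groups after scaling, and none had an unadjusted p under 0.05. Foxm1, the transcription factor that drives many of the others, was the 1 mitotic gene whose groups overlapped, with 17, 31, 31 and 19 counts (log2 fold change -0.03, SE 0.52).

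**Figure D2:**
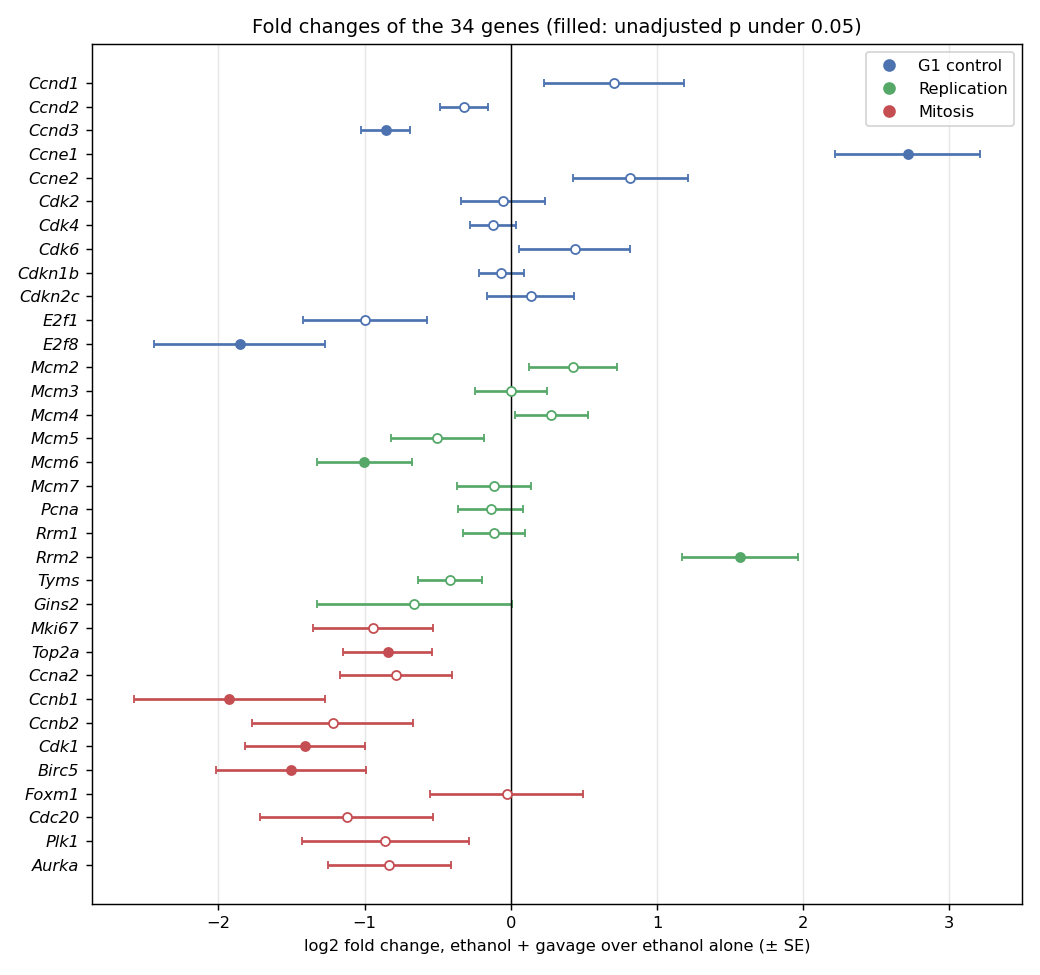
Log2 fold change of each of the 34 genes, gavage over ethanol alone, with its SE as a bar, coloured by role and filled where the unadjusted p was under 0.05. The 11 mitotic genes lie at or left of 0, while G1 genes spread from -1.85 to 2.71. Foxm1, at -0.03, lay right of 0 with library totals or without replicate 2 of either group.

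Per kb of exon, which allows genes to be compared, cyclin D1 led by a wide margin at a mean level of 31.0 CPM per kb with ethanol alone and 50.6 after gavage. Cdk4 followed at 10.4 and 9.57 CPM per kb, then Cdkn1b at 8.04 and 7.69. With the means of the 2 groups averaged, Rrm2 came next at 5.36 CPM per kb, ahead of Pcna at 4.16. Rrm2 stood below Pcna with ethanol alone, at 2.70 against 4.36 CPM per kb, and above it after gavage, at 8.01 against 3.97. Cyclin E1 was among the lowest with ethanol alone, at 0.138 CPM per kb beside 0.399 for cyclin E2, and lay at 0.911 beside 0.703 after gavage. No mitotic gene reached 1 CPM per kb in either group. Ccnb1 was the lowest of all 34 at a mean of 0.0846 CPM per kb. Lengths are those of all annotated exons of a gene joined, so a level is understated for a gene whose main transcript uses few of them.

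**Figure D3:**
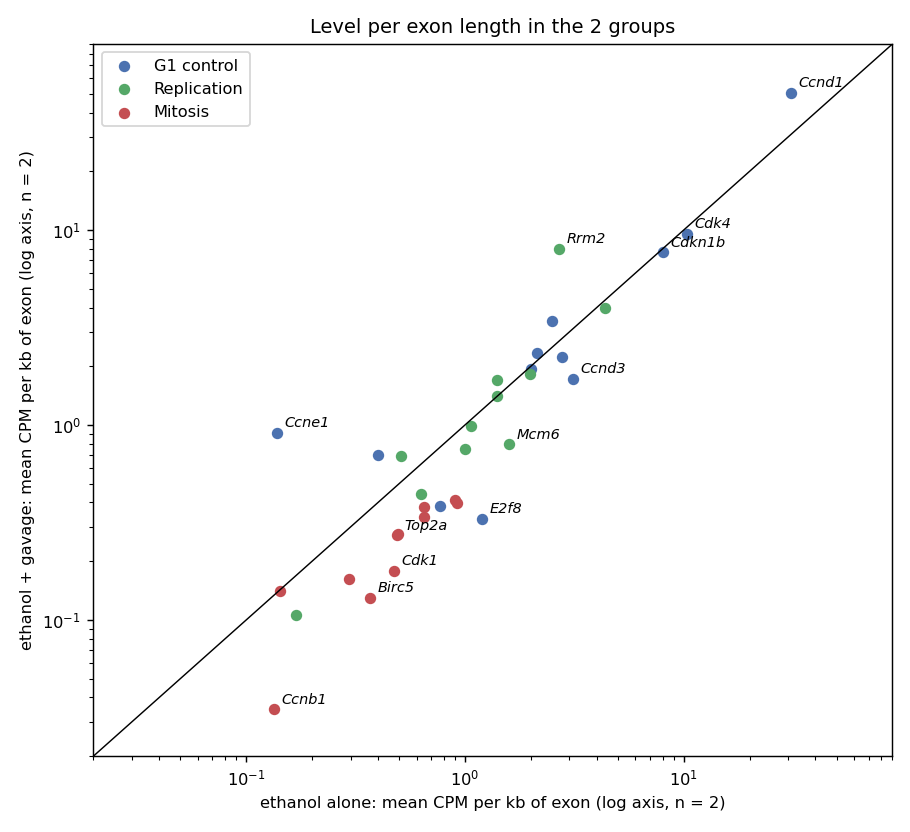
Mean CPM per kb of exon after gavage against ethanol alone for each of the 34 genes, on log axes, coloured by role, with the line of equal levels. Ccnd1 lies far above the rest, and Ccne1 (0.138 and 0.911) and Rrm2 (2.70 and 8.01) lie farthest above the line.

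Set against each gene's own mean over the 4 libraries, the 3 roles differed in how they varied. The median over the 11 mitotic genes, on the log2 scale, was 0.15 and 0.73 in the libraries of ethanol alone and -0.65 and -0.33 in those with gavage. All 11 were above their own mean in replicate 2 of ethanol alone, 9 were in replicate 1, and after gavage 1 and 0 were. The medians of the 12 G1 genes stayed near 0, at 0.05, 0.11, -0.06 and -0.09, while single genes ranged from -1.48 to 1.76. For the 11 replication genes the medians were 0.16, 0.11, 0.11 and -0.17. The summed level was 18.8, 28.4, 10.6 and 13.6 CPM over the mitotic genes. It was 67.1, 70.9, 88.3 and 66.3 CPM over the replication genes, of which Rrm2 alone made up 30.5 CPM in replicate 1 of the gavage group. In whole liver, fewer dividing cells and less message per dividing cell cannot be told apart.

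**Figure D4:**
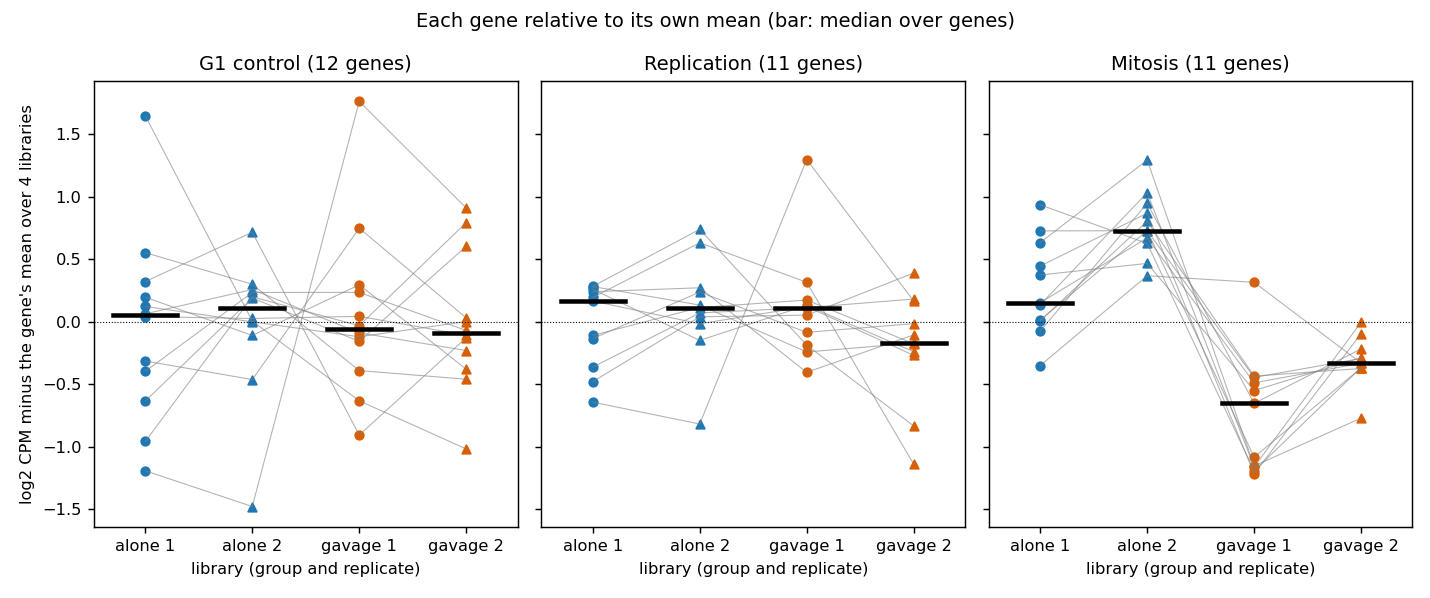
Log2 CPM of each gene minus its own mean over the 4 libraries, by library, in 3 panels for G1 control, replication and mitosis; points are genes, thin lines join the values of a gene and bars are medians. The mitotic medians are 0.15 and 0.73 with ethanol alone and -0.65 and -0.33 after gavage, while those of the other roles stay within 0.2 of 0.

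Other genes of the same stages were taken from lists of known function, chosen with earlier results of these data known. Of 34 other G1 genes, 31 were tested, with a median log2 fold change of 0.10. An unadjusted p under 0.05 was found for 4 that lay higher and 3 that lay lower, against 8.91% and 9.85% of all tested genes, and edgeR's quasi-likelihood test called 0 after adjustment. DESeq2 called 1 higher (Btg2) and 2 lower (Btg1 and Tob1). Antiproliferative genes differed in direction: Btg2 stood at 15.6, 13.9, 46.4 and 31.5 CPM (edgeR adjusted p = 0.133), while Btg1 stood at 47.2, 58.6, 31.5 and 27.6 CPM and its relative Tob1, the most abundant of the list, at 186, 172, 127 and 93.6 CPM. Rb1, the retinoblastoma protein gene, stood at 11.5, 12.7, 20.3 and 18.8 CPM, and Tfdp1, the partner of E2F factors, at 7.91, 10.1, 12.1 and 14.9 CPM. Cdkn1c, which encodes the inhibitor p57, stood at 4.47, 4.86, 2.23 and 2.79 CPM. These 6 genes did not overlap between the groups, and the edgeR adjusted p of the last 5 ran from 0.154 to 0.263.

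Of 49 other replication genes, 48 were tested, 33 of them with a log2 fold change below 0, against 48.3% of all tested genes, and a median of -0.33. An unadjusted p under 0.05 was found for 2 on the higher and 8 on the lower side, where the shares over all tested genes were 8.91% and 9.85%. After adjustment edgeR's quasi-likelihood test called 0, and DESeq2 called 1 higher and 2 lower. Tk1, the thymidine kinase of dividing cells, stood at 22.1 and 13.4 CPM with ethanol alone and at 2.04 and 2.52 CPM after gavage. Its log2 fold change of -2.96 (SE 0.33, edgeR adjusted p = 0.103) was opposite to that of Rrm2, which acts in the same supply of deoxynucleotides. Rpa1, which coats single-stranded DNA, stood at 35.1, 36.4, 24.8 and 21.4 CPM. Higher after gavage were Ung, the uracil-DNA glycosylase of repair, at 5.20, 6.77, 16.1 and 16.7 CPM, and Timeless, of the replication fork, at 2.16, 3.14, 4.39 and 4.75 CPM. None of these 4 genes overlapped between the groups, and the edgeR adjusted p of the last 3 ran from 0.122 to 0.257.

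Of 47 other mitotic genes, 42 were tested, 36 of them with a log2 fold change below 0, against 48.3% of all tested genes, and a median of -0.64. On the higher side 1 had an unadjusted p under 0.05 and on the lower side 8, against 8.91% and 9.85% of all tested genes. The adjusted quasi-likelihood test called 0 of them, and DESeq2 called 1 lower (Spc24). Both gavage libraries lay below both others for 25 of the 42, against 27.2% of all tested genes. Of the 42, 15 had no DESeq2 adjusted p, and which passed the low-count filter through 1 group alone was not checked. Spc24 and Spc25, which form part of the NDC80 complex at the kinetochore, stood at 10.9, 9.32, 2.67 and 1.76 CPM and at 6.44, 2.78, 1.66 and 1.63 CPM. Cdca3, a trigger of mitotic entry, stood at 2.38, 2.94, 1.21 and 1.43 CPM. Wee1, the kinase that holds CDK1 inactive, was the gene higher after gavage, at 2.01, 6.84, 12.4 and 12.7 CPM (SE 0.56 around a log2 fold change of 1.5, edgeR adjusted p = 0.252). Bub3, a checkpoint protein and the most abundant of the list, ranged from 24.3 to 27.5 CPM.

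**Figure D5:**
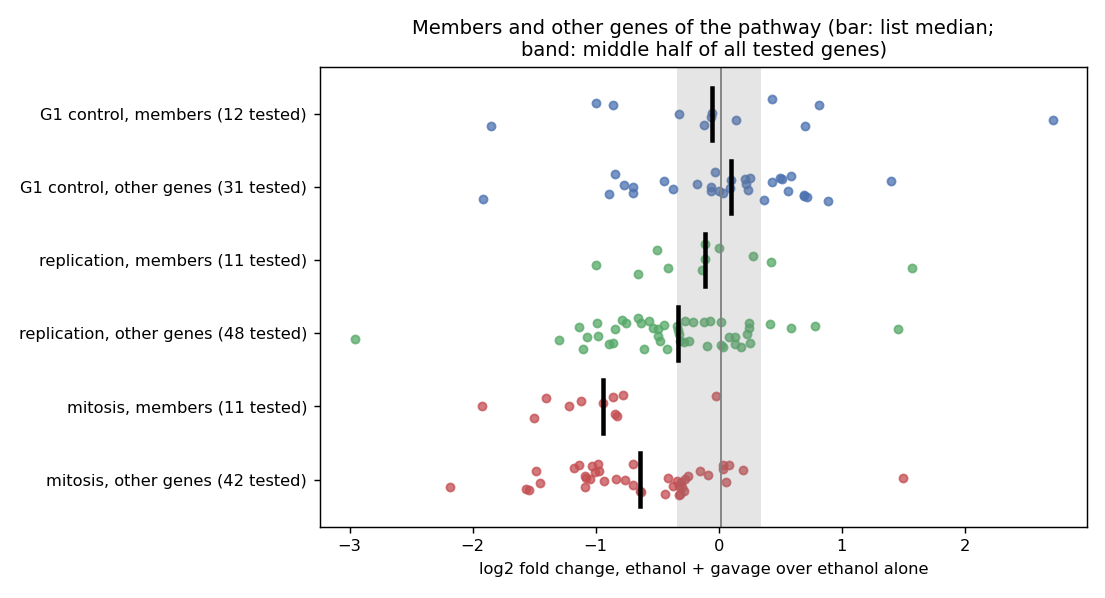
Log2 fold changes, gavage over ethanol alone, of the 34 genes by role and of the other genes of each role; points are genes, black bars list medians, and the grey band spans the quartiles of all tested genes (-0.34 to 0.35). The medians of mitotic genes, -0.94 and -0.64, lie left of the band.

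Markers of some other cell types differed between the groups too. The 12 markers of Kupffer cells and macrophages, resident phagocytes of the liver, all had a log2 fold change below 0 (median -0.71). The share over all tested genes was 48.3%. Of the 12, 9 had an unadjusted p under 0.05, against 9.85% of all tested genes in the lower direction. Their summed level was 750 to 780 CPM with ethanol alone and 444 to 494 CPM after gavage. Of 12 neutrophil markers 4 were tested and lay higher in both gavage libraries, against 27.5% of all tested genes. The sum over the 12 was 4.59 to 5.24 against 6.84 to 18.8 CPM, while the defining genes Ly6g, Mpo and Elane had at most 3 counts in any library. The sum of 15 lymphocyte markers was 26.8 to 31.8 against 20.1 to 29 CPM, and that of 9 erythroid markers 97.3 to 202 against 75.5 to 98.2 CPM, with the red cell membrane gene Epb42 at 0 counts in 3 libraries and 1 in the other. Lymphocyte and erythroid sums overlapped between the groups. So did those of endothelial (555 to 596 against 522 to 556 CPM), stellate and fibroblast (437 to 527 against 493 to 602 CPM) and bile duct markers (87.2 to 99.7 against 78.9 to 94.1 CPM). The 8 fat cell markers summed to 1933 to 2040 against 604 to 663 CPM, nearly all of it Car3, which liver itself expresses. The part of these cells in the lower mitotic messages was not tested.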

How the data were processed

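The deposited table holds whole-number read counts per gene symbol for 4 libraries, not normalised; per the labels' protocols, RNA was extracted from frozen liver with Trizol. A TruSeq and a KAPA kit are both named. Tools in the submitters' processing notes, listed without roles, are STAR 2.6.0a, HTSeq, bcl2fastq 2.20.0.422 and edgeR, with the build GRCm38. No source used here gives the annotation, the strand setting or the handling of multi-mapped reads. Replicates of a group differed beyond sampling noise (chi-square per degree of freedom 126 and 135).

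The analysis used edgeR 4.0.16 (R 4.3.3): filterByExpr by group (minimum count 10, minimum total 15), which kept 13309 genes and all 34 members, TMM factors, and a 2-sided quasi-likelihood test between the groups without covariates, adjusted by Benjamini-Hochberg over all tested genes with a threshold of 0.05. Each SE was derived from the log2 fold change and its F statistic. The common dispersion was 0.0966. The code was checked on counts simulated at this common dispersion for every gene. That check does not cover the spread of single genes in these data. Alternatives were a replicate block, other scalings and filters, DESeq2 1.42.0, limma-voom (limma 3.58.1), edgeR's likelihood-ratio and bias-adjusted tests, and leaving out each library. A floor of 3 counts is 0.0955 to 0.110 CPM.

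Lengths, coordinates and overlaps came from GENCODE (GRCm38), matched by symbol. Members, lists and tests were chosen with earlier results of these data known. All 34 members are named. Of the other genes, the rule named per list the most abundant and up to 3 each way with the smallest unadjusted p under 0.05, groups that did not overlap and a mean of 1 CPM or more. A gene that the rule names is not reported here.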

Additional observations from a re-analysis of the deposited data

How the results depend on the processing

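Of 14 alternative settings, 11 left the count of 0 called members at 0. DESeq2 called 4 members (1177 genes in all), the likelihood-ratio test 3 (549 genes) and the replicate block 2 (410 genes), and the bias-adjusted quasi-likelihood test called 4 genes but no member. Leaving out 1 library at a time gave 0 to 31 called genes and 0 called members, 31 of them without gavage replicate 2 and 12 without replicate 2 of ethanol alone. At an unadjusted p under 0.05, the 9 members became 4 to 6 (1 to 2 higher, 2 to 5 lower) when a library was left out. The counts with a library left out are not set against the 9, since 1 group then held 1 library. The share over all tested genes changed in those fits as well. DESeq2 gave 4 lower in place of 7, while over all 13309 tested genes it gave 1451 lower, against 1311 in the quasi-likelihood test.

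The labels number the replicates alike in both groups but do not say that a number pairs the samples. Over 13309 genes the difference between replicates 1 and 2 correlated between the groups with r = 0.449 on log2(CPM + 1), with only 2 pairs. With the replicate block, 15 members had an unadjusted p under 0.05, against 24.9% of all tested genes, where the share without the block was 18.8%. Of the 15, 4 were higher and 11 lower, against 1691 and 1623 of the 13309 tested genes. Ccne1 and Rrm2 were called (edgeR adjusted p = 0.0286 and 0.0474). The remaining 32 members were not called under the block.

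In all 14 settings 25 of the 34 members kept their sign where tested. Those that did not were the 9 given below. With library totals, Cdk2, Cdkn1b and Foxm1 had log2 fold changes of 0.034, 0.014 and 0.049. Mcm3 had -0.0031 with the replicate block, -0.00044 with DESeq2 size factors, -0.027 with upper-quartile factors, -0.00057 in DESeq2 and -0.0048 in limma-voom. Leaving out 1 library gave -0.43 to 0.24 for Cdk2, -0.00040 to 0.85 for Cdk6, -0.14 to 0.0030 for Cdkn1b, -0.17 to 0.43 for Cdkn2c, -0.18 to 0.16 for Mcm3, -0.35 to 0.083 for Mcm7, -0.34 to 0.038 for Pcna, -0.31 to 0.030 for Rrm1 and -0.38 to 0.33 for Foxm1. The stricter filter (1 CPM in at least 2 libraries) dropped Ccnb1, Plk1 and Gins2. The cause of these differences was not tested. With 2 libraries a group and counts under 40 for several mitotic genes, depth and replication limit what can be called.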

Other observations

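Some genes of the same stages stood apart in 1 library of ethanol alone; they were chosen after their values were seen. Mcm10, a replication initiation factor, had 47.4 CPM in replicate 1 of ethanol alone and 12.6, 13.1 and 11.3 CPM in the other libraries, and E2f8 was highest in that library as well. The erythroid heme synthesis gene Alas2 was also highest there, at 57.9 CPM against 12.5, 9.55 and 9.86 CPM. E2f2, an activating E2F, had 4.23 CPM in replicate 2 of ethanol alone and 0.549, 0.701 and 0.565 CPM in the other libraries. Cdkn1a, which encodes the inhibitor p21, stood at 26.8, 17.6, 30.6 and 42.5 CPM, higher in both gavage libraries (log2 fold change 0.72, SE 0.28, edgeR adjusted p = 0.265).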
